A study of Mus musculus with 4 samples.

Results

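Ankyrins and spectrins form the membrane skeleton of the heart cell, and 6 of their genes, Ank1, Ank2, Ank3, Sptan1, Sptb and Sptbn1, were followed here. They were taken by gene symbol from a table of 48432 genes, and all 6 were found, each on 1 row. The samples were cardiomyocytes, the muscle cells of the heart, freed from mouse hearts by Langendorff perfusion (a flow of enzyme through the coronary vessels), and their polyadenylated RNA was sequenced. The 4 libraries formed 2 groups of 2, all from mice of the C57BL x FVB strain that had eaten a doxycycline diet for 3 days. The control group carried the genotype label MHC. The other group carried the genotype label RbFox2 and overexpressed RBFOX2, an RNA-binding regulator of splicing, and is called Rbfox2 OE. The labels neither expand MHC nor give the promoter that drives the overexpression, the age of the mice, or whether hearts were pooled. The study's title concerns conduction defects of the heart in myotonic dystrophy.

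Spectrins are long, flexible rods in which an alpha chain and a beta chain wind together and join head to head, and the rods link short actin filaments into a lattice under the membrane. Ankyrins are adaptors: one face binds beta spectrin, and the ankyrin repeats on the other face hold membrane proteins, so that channels, pumps and exchangers stay at a given place on the cell surface. In heart muscle, ankyrin-B (Ank2) is known for holding the sodium-calcium exchanger at the T-tubules, and ankyrin-G (Ank3) for holding ion channels at the intercalated disc. Inherited loss of ankyrin-B function is known to cause a cardiac arrhythmia syndrome.

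Each gene had 1 FPKM value per group, made by the authors from both libraries of the group. FPKM is a fragment count divided by transcript length and scaled for library size, here in a way that is not stated. The values come with the authors' lower and upper bounds, whose level is not stated. No value per library was used, so the spread between animals is unknown and no test between groups could be run. Ranges in parentheses after a level are those bounds. Separate bounds mean that the bounds of the groups do not overlap. Log2 ratios are Rbfox2 OE over MHC with a pseudocount of 1 FPKM, which understates differences of low genes. The table states no fragment numbers, so depth is unknown. The comparison over all genes took the 11695 with an estimate in both groups that averaged at least 1 FPKM, and their median log2 ratio was -0.06. The overexpressed gene, Rbfox2, stood at 14.7 FPKM in MHC and 293 FPKM in Rbfox2 OE, in the direction of the labels.

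The known recognition element of RBFOX proteins in RNA is the hexamer UGCAUG, printed as TGCATG in the annotated transcripts (GENCODE M21, GRCm38). It was searched on the sense strand of the longest coding transcript of each gene, because RBFOX2 was the protein overexpressed. Ank3 held 5 copies, Ank1, Ank2 and Sptan1 held 3 each, Sptbn1 held 1 and Sptb held 0. The hexamer occurred in 51.6% of the longest coding transcripts of all 21901 coding genes, and in 84.5% of the 3681 that were at least 5000 bases long. Per kb of transcript, Ank3 held 0.502 copies, Sptan1 0.374, Ank1 0.365, Ank2 0.210 and Sptbn1 0.110. The median of those 3681 transcripts was 0.274 per kb. A match describes letters only, and neither introns nor the other transcripts of each gene were searched. Which transcripts made up the measured levels is not known, so these counts may not hold for them. Each ankyrin transcript had a copy in its coding sequence with alike flanks, shown here with the hexamer in capitals, at chr8:23099614-23099619 on the plus strand for Ank1, chr3:127013316-127013321 on the minus strand for Ank2 and chr10:69885155-69885160 on the plus strand for Ank3.
Ank1: gcttgactcctcTGCATGtggccgtccatc
Ank2: gcttcactccccTGCATGtagcagccaagt
Ank3: ggctaactccacTGCATGtagcagcgcatt
Of these 30 bases, 23 were identical between Ank2 and Ank3, 22 between Ank1 and Ank2, and 21 between Ank1 and Ank3. The bases of the hexamer are identical by the search itself. These were the most alike of the pairs of ankyrin coding windows, and the other pairs shared 8 to 17 bases. Ank3 held 4 of its copies in the 3′ UTR, and a window at chr10:70026577-70026582 holds the closest pair, the other copy in lower case at its right end.
Ank3, 3′ UTR: agagagtacattTGCATGtcatttgcatga

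All 3 ankyrin genes were lower in Rbfox2 OE with separate bounds, by 4.05-fold to 9.30-fold. Of the spectrins, the beta chain Sptb was 2.95-fold lower with separate bounds, while the bounds overlapped for the beta chain Sptbn1 and the alpha chain Sptan1. In all, 4 of the 6 genes were lower with separate bounds and 0 were higher. Across all genes, 9.33% were lower and 6.66% higher by that rule. When values were rescaled to equal sums without mitochondrial genes and the 10 most abundant genes, those shares became 7.04% and 8.71%, and the same 4 genes still had separate bounds. The same 4 genes were at least 2-fold apart, against 17.0% of all genes in either direction. The median log2 ratio of the 6 genes was -1.66.

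**Figure D1:**
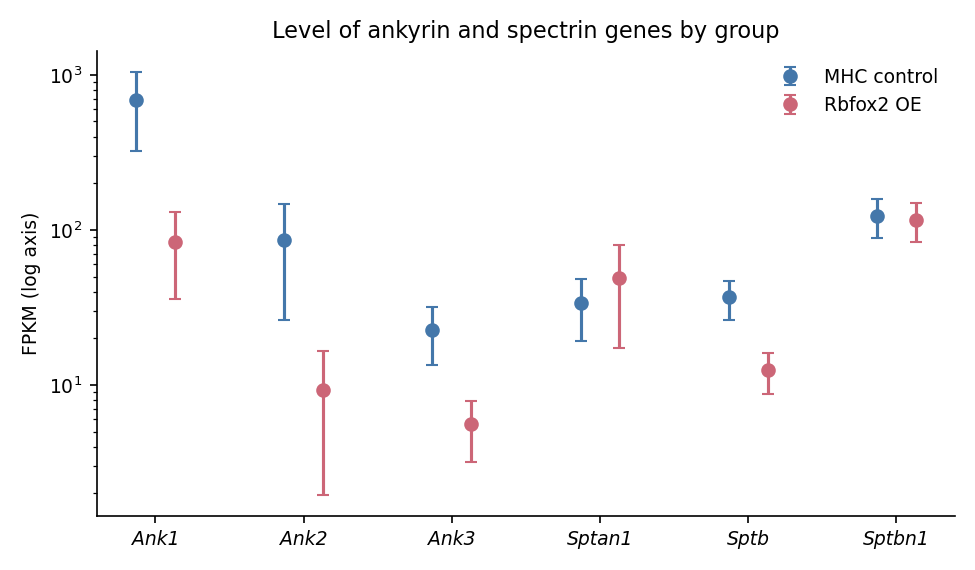
FPKM (log axis) of the 6 genes in the MHC control and Rbfox2 OE groups; points are the authors' values from both libraries of a group and bars their lower and upper bounds. The 3 ankyrins and Sptb sit lower in Rbfox2 OE with bounds apart, and the bounds of Sptan1 and Sptbn1 overlap.

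Ank2 encodes ankyrin-B, the adaptor of the exchanger. The gene (ENSMUSG00000032826.16, chromosome 3, 126921612 to 127499350, protein-coding, on the minus strand) stood at 86.4 FPKM in MHC, with bounds of 26.4 to 146 FPKM. In Rbfox2 OE it stood at 9.30 FPKM, with bounds of 1.97 to 16.6 FPKM. The upper bound of Rbfox2 OE lay below the lower bound of MHC by a small distance, since the bounds reached 69.4% and 78.8% of the value to either side, against a median of 38.4% and 39.3% over all genes. This gave a log2 ratio of -3.09, or -0.64 from the nearest and -5.63 from the farthest pair of bounds. It was the 17th lowest log2 ratio of the 11695 genes.

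Ank1 encodes ankyrin-R, the ankyrin first known from red blood cells, and its short muscle transcripts encode small ankyrins of the sarcoplasmic reticulum. The gene (ENSMUSG00000031543.18, chromosome 8, 22974844 to 23150497, protein-coding, on the plus strand) had the highest level of the 6 in MHC, at 684 FPKM with bounds of 324 to 1044 FPKM. In Rbfox2 OE it stood at 83.4 FPKM with bounds of 35.8 to 131 FPKM. It was 8.20-fold lower, with a log2 ratio of -3.02 and -1.30 from the nearest bounds. By level, it was the 102nd of the 11695 genes in MHC and the 754th in Rbfox2 OE. The decrease was the 19th largest, and 0.180% of all genes (21) were at least 8-fold lower on the pseudocount scale, both Ank1 and Ank2 among them. Both lay close to that threshold. On the rescaling without mitochondrial genes and the 10 most abundant genes, 0.137% of genes (16) passed it. Ank1, then at -2.87, and Ank2, then at -2.94, did not.

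The Ank1 value joins transcripts of very different length. The annotation lists 17 Ank1 transcripts of which 13 are coding, from 328 to 8218 bases, and 3 of the coding ones are under 2000 bases. Cuffdiff sums FPKM over the transcripts of a gene, each divided by its own length, so a few fragments on a short transcript weigh as much as many on a long one. The gene-level table does not separate the small muscle forms from the full-length ankyrin, so which of them differed was not tested. Ank2 and Ank3, with 16 and 31 coding transcripts of 243 to 14305 and 342 to 9963 bases, carry the same limit. Gm15816, a gene whose locus overlaps that of Ank1, stood at 1.44 FPKM in MHC and 1.46 FPKM in Rbfox2 OE. The microRNA gene Mir486, which also overlaps Ank1, was listed at 0 in both groups of these polyadenylated libraries.

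Ank3 encodes ankyrin-G, the ankyrin of the intercalated disc. The gene (ENSMUSG00000069601.13, chromosome 10, 69533772 to 70027438 in the deposited table, protein-coding, on the plus strand) stood at 22.5 FPKM in MHC with bounds of 13.4 to 31.6 FPKM. In Rbfox2 OE it stood at 5.56 FPKM with bounds of 3.19 to 7.93 FPKM. It was 4.05-fold lower, with a log2 ratio of -1.84, the 194th lowest. It was the least abundant of the 6 genes in both groups. Because the pseudocount weighs more on a low gene, its log2 ratio ran from -2.0 with 0.1 FPKM to -1.38 with 5 FPKM.

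Sptb encodes beta-I spectrin, the beta chain of red blood cells and striated muscle. The gene (ENSMUSG00000021061.15, chromosome 12, 76580488 to 76710547, protein-coding, on the minus strand) stood at 36.7 FPKM in MHC with bounds of 26.3 to 47.0 FPKM. In Rbfox2 OE it stood at 12.4 FPKM with bounds of 8.78 to 16.1 FPKM. The log2 ratio was -1.49, the 401st lowest, and the nearest bounds gave -0.68. Its bounds were among the narrowest of the 6 genes, within 29.4% of the value in either group.

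Sptbn1 encodes beta-II spectrin, the widely expressed beta chain to which ankyrin-B and ankyrin-G bind. The gene (ENSMUSG00000020315.18, chromosome 11, 30099395 to 30280491 in the deposited table, protein-coding, on the minus strand) stood at 124 FPKM in MHC with bounds of 88.7 to 158 FPKM. In Rbfox2 OE it stood at 117 FPKM with bounds of 83.2 to 150 FPKM. The log2 ratio was -0.08, and the farthest bounds ran from -0.92 to 0.75. Its sign turned on that rescaling, to 0.07, so no direction was assigned.

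Sptan1 encodes alpha-II spectrin, the non-erythroid alpha chain that pairs with each of these beta chains and is a well-known target of the calpain proteases. The gene (ENSMUSG00000057738.13, chromosome 2, 29965560 to 30031451, protein-coding, on the plus strand) stood at 33.8 FPKM in MHC with bounds of 19.1 to 48.6 FPKM. In Rbfox2 OE it stood at 48.7 FPKM with bounds of 17.4 to 80.1 FPKM. The bounds of MHC lay inside those of Rbfox2 OE. The log2 ratio was 0.51, with -1.43 to 2.01 from the farthest bounds.

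The order of levels in FPKM, a scale per length, differed between the groups. For the ankyrins this order carries the limit on transcripts of unequal length given above. In MHC the order was Ank1, Sptbn1, Ank2, Sptb, Sptan1 and Ank3, and of neighbours in that order only Ank1 and Sptbn1 had separate bounds. In Rbfox2 OE the order was Sptbn1, Ank1, Sptan1, Sptb, Ank2 and Ank3, and only Sptan1 and Sptb had separate bounds. Ank2 thus took place 3 in MHC and place 5 in Rbfox2 OE.

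Within the ankyrins, the summed level was 793 FPKM in MHC and 98.3 FPKM in Rbfox2 OE. The shares of the 3 genes in that sum moved little beside the bounds. Ank1 made up 86.3% in MHC and 84.9% in Rbfox2 OE, Ank2 made up 10.9% and 9.46%, and Ank3 made up 2.84% and 5.66%. The bounds allow an Ank3 share of 1.11% to 8.29% in MHC and of 2.12% to 17.4% in Rbfox2 OE. Without Ank1, the sum of Ank2 and Ank3 was 109 FPKM in MHC (39.8 to 178) and 14.9 FPKM in Rbfox2 OE (5.16 to 24.6).

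Sptb made up 22.8% of the beta spectrin level in MHC, between 14.2% and 34.7% by the bounds, and 9.62% in Rbfox2 OE, between 5.51% and 16.2%. Those ranges overlap at their ends. Sptbn1 stood at 3.37 times Sptb in MHC, between 1.88 and 6.02 by the bounds. In Rbfox2 OE it stood at 9.38 times Sptb, between 5.18 and 17.1, and these ranges also overlap at their ends. The alpha chain Sptan1 stood at 0.210 of the summed beta chains in MHC and at 0.377 in Rbfox2 OE, with ranges by the bounds of 0.0924 to 0.422 and 0.104 to 0.870, which overlap over most of their length.

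**Figure D2:**
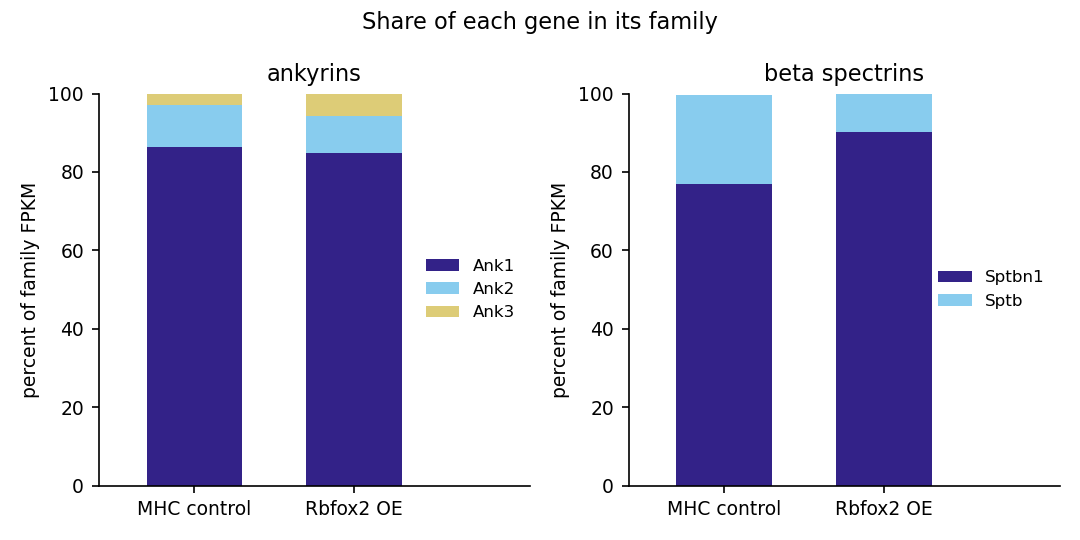
Share of each gene, in percent of the summed FPKM of its family, in the MHC control and Rbfox2 OE groups, for ankyrins (left) and beta spectrins (right). Ank1 takes 86.3% and 84.9% of the ankyrin level, and Sptb takes 22.8% of the beta spectrin level in MHC and 9.62% in Rbfox2 OE; the other beta spectrins are too low to see.

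Other beta spectrin genes were low. Sptbn4, the beta-IV chain known to anchor CaM kinase at the intercalated disc, stood at 0.258 FPKM in MHC and 0.0106 FPKM in Rbfox2 OE, and both lower bounds were at 0. Sptbn5 stood at 0.183 FPKM in MHC and 0.138 FPKM in Rbfox2 OE, and both values lay outside their own bounds.

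Promoter sequence is shown for Ank2 and Sptb, which were lower, and for Sptan1, whose bounds overlapped. RefSeq sequences (GRCm38.p6) matched 4 of the 6 genes, with 8 start sites. The 250 bases before the most upstream RefSeq start are printed for Ank2 (chr3:127499116-127499365, minus strand), Sptb (chr12:76710548-76710797, minus strand) and Sptan1 (chr2:29965310-29965559, plus strand). The Ank2 gene as given above reaches to 127499350, so most of its window lies inside the annotated gene. Capitals mark 4 motifs, searched on both strands, none of which contains another. The first is GGGCGG, the letters that Sp1-type factors bind. Another is the core of the TATA box, TATAAA, at which transcription can be placed. A form that GATA-type factors bind is GATAAG, known from red cell and heart genes. The last one, known to be bound by TEAD-type factors of muscle, is GGAATG.
Ank2: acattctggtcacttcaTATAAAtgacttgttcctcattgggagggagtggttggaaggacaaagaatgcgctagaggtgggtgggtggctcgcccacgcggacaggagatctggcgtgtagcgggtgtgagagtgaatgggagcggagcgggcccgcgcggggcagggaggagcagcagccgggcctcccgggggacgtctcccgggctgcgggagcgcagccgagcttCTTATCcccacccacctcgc
Sptb: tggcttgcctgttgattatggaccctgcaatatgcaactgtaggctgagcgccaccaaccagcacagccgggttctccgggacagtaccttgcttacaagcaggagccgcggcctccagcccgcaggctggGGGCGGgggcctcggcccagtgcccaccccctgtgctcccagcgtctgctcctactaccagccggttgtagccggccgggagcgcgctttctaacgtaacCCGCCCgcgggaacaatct
Sptan1: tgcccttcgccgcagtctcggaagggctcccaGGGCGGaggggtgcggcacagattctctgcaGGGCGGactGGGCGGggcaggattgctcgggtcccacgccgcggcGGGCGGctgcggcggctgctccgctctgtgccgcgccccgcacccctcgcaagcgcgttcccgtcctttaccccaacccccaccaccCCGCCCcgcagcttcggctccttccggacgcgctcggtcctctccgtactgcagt
The window of Sptan1 held 5 copies of GGGCGG, that of Sptb 2 and that of Ank2 0, and 32.7% of the 32851 promoter windows held at least 1. The Ank2 window held 1 TATAAA, found in 12.4% of windows, and 1 GATAAG, found in 6.55%. Both motifs lay inside the annotated Ank2 gene. GGAATG was in 12.6% of windows and in 0 of these 3. The windows held 19 CpG dinucleotides in Ank2, 18 in Sptb and 31 in Sptan1, against a median of 6. The 3 other Ank2 starts had 2, 5 and 3 CpG and 0 copies of each motif. The further upstream of the 2 Sptbn1 starts had 2 CpG and 0 copies of GGGCGG, as many copies as Ank2, and the other had 20 CpG and 1 copy. Both Sptbn1 starts lay inside the locus given for that gene.

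Among the membrane proteins that ankyrins anchor, the genes with separate bounds were mostly lower. Of 12 genes that averaged at least 1 FPKM, 4 were lower with separate bounds, 1 was higher and 7 overlapped. By that rule, 9.33% of all genes were lower and 6.66% higher. The median log2 ratio of these 12 genes was -0.06. That median was -0.55 for the genes averaging at least 5 FPKM and 0.09 on the rescaling without mitochondrial genes and the 10 most abundant genes. The exchanger gene Slc8a1, a partner of ankyrin-B, had a log2 ratio of -2.73. Kcnj11, the pore of the ATP-sensitive potassium channel, had a log2 ratio of -2.10. Cd44, a hyaluronan receptor of many cell types that binds ankyrin, was the gene that was higher, at 2.39 FPKM in MHC and 9.11 FPKM in Rbfox2 OE.

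Of the 10 membrane skeleton genes that work beside spectrin and averaged at least 1 FPKM, 2 were lower with separate bounds, 0 were higher and 8 overlapped, with a median log2 ratio of 0.01. Of all genes, 9.33% were lower by that rule. Both lower genes were tropomodulins, which cap the slow-growing end of actin filaments. Tmod1, the main cardiac form, stood at 209 FPKM in MHC (149 to 269) and 108 FPKM in Rbfox2 OE (75.7 to 141). Tmod4 stood at 13.0 FPKM and 4.10 FPKM, a log2 ratio of -1.46. Add1, an adducin that joins spectrin to actin, stood at 54.7 FPKM in MHC and 54.8 FPKM in Rbfox2 OE, and its bounds overlapped.

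Of the 12 cytoplasmic and junctional partners, 1 was lower with separate bounds, 0 were higher and 11 overlapped, with a median log2 ratio of -0.62. With 9.33% of all genes lower by that rule, 1 of 12 was near the share of all genes. The gene with separate bounds was Gja1, the main ventricular connexin, at a log2 ratio of -0.99. Ehd3, an endocytic recycling gene whose product binds ankyrin-B, stood at 1.14 and 2.11 FPKM with overlapping bounds. The bounds of all 4 calpain system genes, which include calpains and their inhibitor calpastatin, overlapped.

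**Figure D3:**
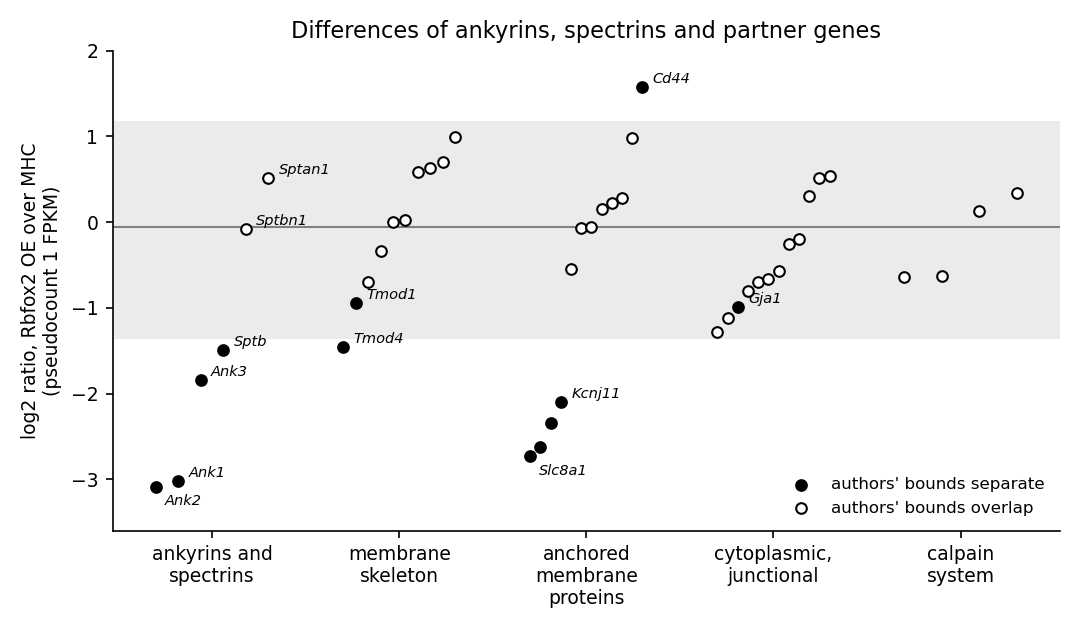
Log2 ratio of Rbfox2 OE over MHC (pseudocount 1 FPKM) for the ankyrins and spectrins and for 4 lists of partner genes that averaged at least 1 FPKM; filled points have separate bounds, open points overlap, the line is the median of all genes (-0.06) and the band their 5th to 95th percentile. Ank1 and Ank2 lie lowest, at -3.02 and -3.09, and 4 of the anchored membrane proteins lie at -2.10 or below.

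The genes followed here occupy long stretches of chromosome, and genes in long loci were lower as a class. The locus in the table spanned over 150 kb for 4 of the 6 genes (Ank1, Ank2, Ank3 and Sptbn1) and for 11.2% of all genes. The median log2 ratio was 0.05 for the 2176 genes in loci under 10 kb, -0.04 for 10 to 50 kb, -0.10 for 50 to 150 kb and -0.29 for the 1310 genes over 150 kb. Among the longest, 14.4% were lower with separate bounds and 3.66% higher. All 3 ankyrins lay below the 5th percentile of that class, which was -1.71, and Sptb lay below the 5th percentile of its own, -1.40. Sptbn1, in a locus of 181 kb, lay near its class median. The part of locus length in the lower ankyrin values was not tested.

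**Figure D4:**
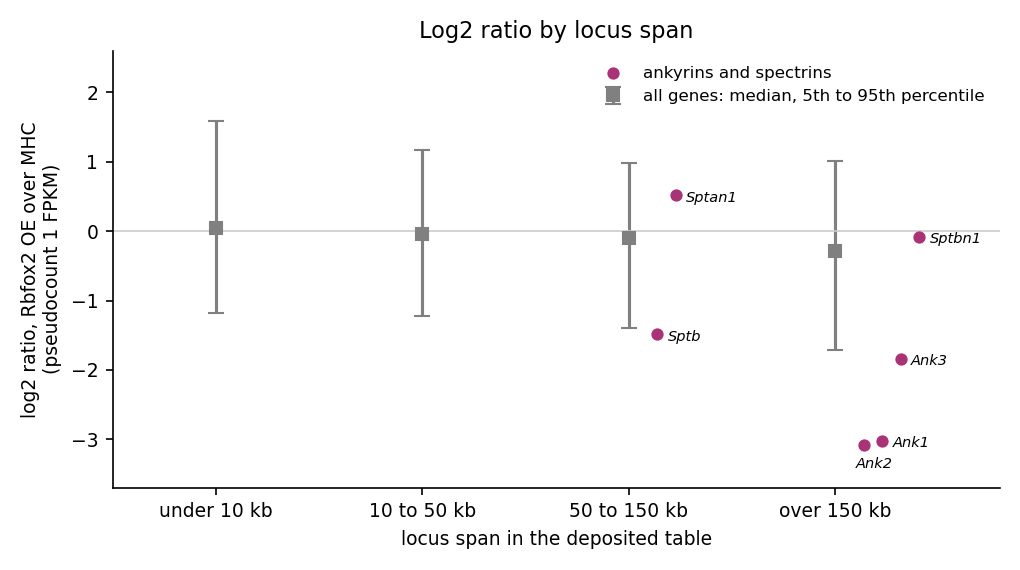
Log2 ratio of Rbfox2 OE over MHC by locus span; grey squares and bars are the median and the 5th to 95th percentile of all genes in 4 classes of locus span, and coloured points are the ankyrins and spectrins. The 3 ankyrins lie below the bar of the class over 150 kb, and Sptb below that of 50 to 150 kb.

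Markers of cell types also differed between the groups, and in a bulk sample fewer cells of a type and less RNA per cell cannot be told apart. Of 10 cardiomyocyte markers with an estimate, 4 were lower with separate bounds (Tnni3, Actc1, Pln and Ryr2), 0 were higher, and the median log2 ratio was -0.63. By that rule, 9.33% of all genes were lower. The summed level of these markers was 58905 FPKM in MHC (42659 to 75150) and 37341 FPKM in Rbfox2 OE (26953 to 47728), without Myh6, which had no estimate in either group. The log2 ratios of these markers ran from -2.42 to 0.60. Pln, the inhibitor of the calcium pump of the sarcoplasmic reticulum, at -2.42, and Ryr2, its calcium release channel, at -2.39, lay below Ank3 and Sptb and above Ank1 and Ank2.

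Ank1 and Sptb are also red blood cell genes, and red blood cell markers went the other way. Of the 5 averaging at least 1 FPKM, 4, all globins, were higher with separate bounds, against 6.66% of all genes. The summed level of the 10 red blood cell markers in the table was 57.3 FPKM in MHC (36.5 to 78.3) and 296 FPKM in Rbfox2 OE (191 to 400). Slc4a1 and Epb42, which bind ankyrin in red cells, were listed at 0 in MHC and under 0.01 FPKM in Rbfox2 OE.

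Some markers of other cell types were higher in Rbfox2 OE. By separate bounds this held for 10 of 11 macrophage and leukocyte markers, 5 of 8 fibroblast markers, 3 of 9 endothelial markers and 3 of 6 smooth muscle and pericyte markers, with 0 lower in each list. Of all genes, 6.66% were higher by that rule. The summed levels of these 4 lists went from 127 to 434, 213 to 504, 242 to 421 and 140 to 319 FPKM. No marker of these 4 lists was at 0 in either group. Of the 8 neuronal and glial markers, only Uchl1 reached a mean of 1 FPKM, and its bounds overlapped; the list summed to 9.42 and 13.1 FPKM. Sptan1 and Sptbn1 are expressed by most of these cell types. The part of cell makeup in the values of the ankyrins and spectrins was not tested.

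**Figure D5:**
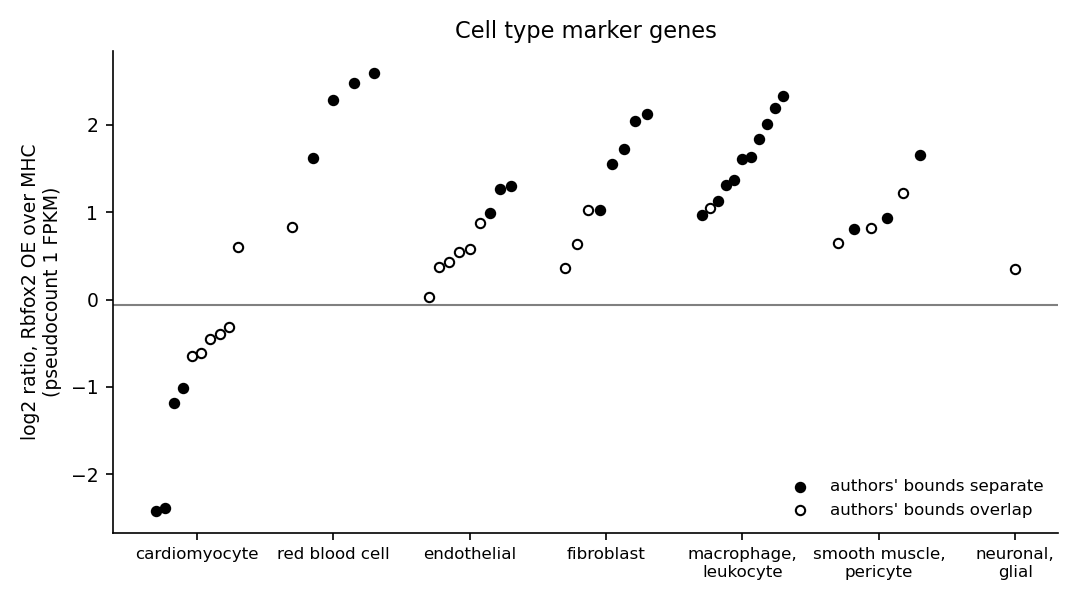
Log2 ratio of Rbfox2 OE over MHC for marker genes that averaged at least 1 FPKM, 1 column a cell type; filled points have separate bounds, open points overlap, and the line is the median of all genes. Cardiomyocyte markers have a median of -0.63, and 10 of 11 macrophage and leukocyte markers are higher with separate bounds, against 6.66% of all genes.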

How the data were processed

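Per the file headers, the authors used Cuffdiff to make FPKM values with lower and upper bounds, 1 per gene and group. The submitters' processing notes name bcl2fastq 2.17.1.14, Trimmomatic, STAR 2.4.2a, Picard 1.119, HTSeq, DESeq2 and Cuffdiff 2.2.1, with the builds GRCm38 and mm10 and no role for each. The annotation, the normalization mode, strand use in counting and the level of the bounds are not given in the sources used here. Libraries were stranded TruSeq and poly(A)-selected per the labels' protocols.

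From the deposited FPKM values, rows of the same gene name (110 names) were added up, 30 genes without an estimate in a group (status HIDATA, listed at 0) were left out, and log2 ratios were computed with a pseudocount of 1 FPKM (Python 3.11.15, pandas 2.3.3). Genes were counted at 2-fold or where bounds were separate. There is no replicate spread, so no p-values were computed. The calculations were tested on simulated data.

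Genes named were the 6 ankyrins and spectrins, 4 other spectrins, partner genes with separate bounds, and Slc8a1, Ehd3, Add1 and Rbfox2. Some of these genes are not reported here. The genes and lists were chosen with earlier results of these data known. No genes were ranked by likeness of pattern, since 2 values a gene give 1 ratio. Alternatives covered the pseudocount, filter, fold threshold and scaling.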

Additional observations from a re-analysis of the deposited data

How the results depend on the processing

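No paired analysis was possible because each group has 1 value for both its libraries, and leaving out a library in turn was not run either. How far libraries of a group differ is unknown, and so is the depth, which limits low genes such as Sptbn4 most.

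The 6 log2 ratios stayed inside the range given by the authors' bounds under the 4 alternatives run for each. Those ranges were wide, from -5.63 to -0.64 for Ank2 and from -2.30 to -0.68 for Sptb. Rescaling and centring on the median gene shifted the values by far less and could not have taken them out. Ank1 ran from -3.03 to -2.87, Ank2 from -3.20 to -2.68 and Sptb from -1.55 to -1.26. Sptbn1 turned from -0.08 to 0.07 on rescaling without mitochondrial genes and the 10 most abundant genes, which raised all Rbfox2 OE values by a log2 of 0.16 and the median of all genes from -0.06 to 0.07. Of the genes at least 2-fold apart, 59.0% were lower as deposited and 46.3% after that rescaling; 7.04% of all genes were then lower with separate bounds, and 4 of the 6 ankyrins and spectrins still had separate bounds.

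Of 149 values under alternatives, 139 stayed within their error or within 1.5 times a count. Among them are the family sums, shares and ratios computed from the bounds. Those lie in their range by construction and could not have moved, so the total overstates how stable the results were. The log2 ratios of the 6 genes and the medians of the partner lists were also judged against wide ranges. A 4-fold threshold on the pseudocount scale left 2 of the 6 genes, since Ank3, 4.05-fold lower without a pseudocount, had a log2 ratio of -1.84. For membrane skeleton partners the 1 gene at least 2-fold apart became 2 with a pseudocount of 0.1, on rescaling and on centring on the median gene, and 0 with a pseudocount of 5. Rescaling left 1 of the 2 cytoplasmic and junctional partners, and a pseudocount of 0.1 brought 1 spectrin outside the 6 past 2-fold. The median of the anchored membrane proteins, -0.06, became 0.09 on rescaling and -0.55 with a minimum mean of 5 FPKM. That minimum also raised the share lower with separate bounds to 9.91% for loci of 10 to 50 kb, 12.4% for 50 to 150 kb and 17.4% for over 150 kb. Where no cause is given, the cause was not tested.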
